A study of Triticum turgidum subsp. durum with 36 samples.

Results

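The TaYSL loci are 10 transcribed loci of durum wheat that the study assigned to Yellow stripe-like (YSL) metal-chelate transporters. They comprise TaYSL6 and TaYSL9 on chromosome arm 2AL, the homoeologs of TaYSL12 on 2AL and 2BL, TaYSL13 on 2AL, TaYSL13-like on 2BL, and the homoeologs of TaYSL15 (6AL and 6BL) and TaYSL18 (2AL and 2BL). A locus was taken for a TaYSL entry tabulated by the study when its mean normalized count in WT lay within 1 of the tabulated value at each of the 3 time points. The normalized count is the number of uniquely mapped reads over the size factor of its library (median of ratios). Each entry met exactly 1 locus on its arm. The gap to the tabulated values reached 0.489 at most, and the nearest other locus on the arm missed by 4.84 (TaYSL13 2AL) to 201.5 (TaYSL12 2AL). These 10 loci were found among 80168 deposited loci, and all 10 were among the 75375 loci kept for testing, with over 3 reads in 2 or more replicates of some group. The loci were therefore chosen by their measured levels in WT, which are given as a description, with no test.

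RNA was taken from single flag leaves, the uppermost leaf below the spike, of greenhouse plants of the variety Kronos. Plants of the double mutant gpc-A1/gpc-B2 and of the single mutant gpc-A1 carry induced stop mutations in the NAC transcription factor genes of the same names, and WT plants were siblings without them after 2 backcrosses. All 3 genotypes, WT included, lack a functional GPC-B1 protein, and none carries a mutation in the expressed GPC-A2 copy. Leaves were collected at heading date (HD) and at 12 and 22 days after anthesis (12DAA and 22DAA), with 4 biological replicates of each of the 9 groups, or 36 libraries. Totals ranged from 13754124 to 48981831 counts per library, with a median of 19377651. One library labelled gpc-A1 at HD (replicate 1) has wild type in its genotype field, while its title and source name give gpc-A1, and the title was used. In the part of the study's locus descriptions available here, 17 loci were described as chlorophyll a-b binding proteins, markers of leaf mesophyll. The 16 of these that were measured held 0.419% to 5.18% of the counts of each library. The study reports light harvesting as enriched among genes that fell during senescence, so a lower share need not mean less mesophyll. Counts of entire leaves cannot tell fewer cells of a type from less RNA per cell.

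YSL proteins sit in membranes and carry iron, zinc, copper or manganese bound to nicotianamine or to phytosiderophores of the mugineic acid family. In grasses they serve uptake of iron from the soil and movement of metals within the plant, including loading into the phloem, through which a senescing flag leaf supplies the grain. Nicotianamine synthase (NAS) makes the chelator nicotianamine, and nicotianamine aminotransferase (NAAT) and deoxymugineic acid synthase (DMAS) convert it to deoxymugineic acid. Roles of single proteins are best known from rice, where OsYSL6 carries manganese-nicotianamine and OsYSL15 and OsYSL18 carry iron-deoxymugineic acid. Whether the wheat proteins of the same number share those roles was not examined here. For TaYSL18 the study lists no rice counterpart, so the shared number with OsYSL18 does not stand for a match.

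The loci are ranges on contigs of the IWGSC chromosome arm assembly, counted from the first base of the contig. On 2AL, TaYSL6 spans bases 1 to 1586 of contig 6379234, and TaYSL9 spans 4265 to 8744 of contig 6330237. The TaYSL12 homoeologs span 6897 to 11423 of 2AL contig 6419698 and 6550 to 11596 of 2BL contig 8075683. TaYSL13 spans 2270 to 15679 of 2AL contig 6356986, and TaYSL13-like spans 5903 to 9896 of 2BL contig 8083855. The TaYSL15 homoeologs span 416 to 3633 of 6AL contig 5793266 and 2283 to 4419 of 6BL contig 4351320, and those of TaYSL18 span 5445 to 9363 of 2AL contig 6407162 and 5433 to 9834 of 2BL contig 8092856. A range covers introns as well as exons, so normalized counts were compared between libraries and not between loci. Only reads that mapped to a single place were counted, so near-identical stretches of homoeologs lost reads. The count table carries no strand.

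TaYSL6 2AL, whose rice namesake is the manganese-nicotianamine carrier, had 317.9, 308.2, 351.8 and 272.1 normalized counts in the 4 gpc-A1/gpc-B2 leaves at HD, 460.7, 454.3, 420.0 and 389.7 at 12DAA, and 668.7, 395.7, 432.0 and 461.3 at 22DAA. The 12DAA and 22DAA leaves of the double mutant overlapped, and both stood above HD. In gpc-A1 it had 311.2, 304.5, 313.5 and 275.2 at HD, 376.5, 337.9, 476.3 and 382.8 at 12DAA, and 835.4, 1764.6, 382.6 and 813.3 at 22DAA, where replicate 3 stayed at the level of 12DAA. In WT it had 331.4, 439.7, 300.4 and 384.9 at HD, 499.8, 588.3, 524.8 and 490.5 at 12DAA, and 811.0, 1439.3, 841.2 and 851.1 at 22DAA. No WT leaf of a later time point lay within the range of an earlier one.

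TaYSL9 2AL had 496.7, 550.8, 419.3 and 546.4 normalized counts in gpc-A1/gpc-B2 at HD, 701.6, 895.9, 757.8 and 714.0 at 12DAA, and 1043.3, 962.0, 803.4 and 999.5 at 22DAA. These levels were higher at each later time point in the mean, and only replicate 3 at 22DAA fell inside the range of 12DAA. Rice OsYSL9 is known for moving iron within the plant and to the developing grain. In gpc-A1 TaYSL9 2AL ran from 526.5 to 660.6 at HD, from 570.9 to 824.7 at 12DAA and from 808.3 to 2137.2 at 22DAA. In WT it averaged 725.2 ± 120.1 at HD, 994.99 ± 177.6 at 12DAA and 1516.9 ± 311.1 at 22DAA (SD, n = 4 each).

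TaYSL12 2AL is marked in the study's list of these genes as coding for a protein predicted not to function. It had 438.2, 361.5, 320.9 and 404.5 normalized counts in gpc-A1/gpc-B2 plants at HD, 495.6, 1078.2, 634.4 and 586.7 at 12DAA, and 2330.9, 1052.6, 775.3 and 809.6 at 22DAA. All leaves of the later time points exceeded those of HD. In gpc-A1 the 22DAA leaves spread from 512.96 in replicate 3 to 4200.0 in replicate 1, and those of HD from 294.7 to 473.3. In WT the locus averaged 554.1 ± 157.2 at HD, 701.1 ± 115.5 at 12DAA and 1388.7 ± 458.4 at 22DAA (SD, n = 4 each).

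TaYSL12 2BL, its homoeolog, followed another course. In gpc-A1/gpc-B2 it had 366.5, 399.6, 450.3 and 362.5 at HD, 923.8, 945.1, 1103.0 and 515.9 at 12DAA, and 1177.5, 1003.5, 770.1 and 930.4 at 22DAA. In gpc-A1 it had 397.2, 363.4, 380.9 and 570.7 at HD, 743.2, 632.1, 800.1 and 1072.7 at 12DAA, and 1892.6, 672.1, 449.9 and 577.4 at 22DAA. In WT it had 554.9, 439.7, 321.6 and 431.3 at HD, 628.4, 558.1, 558.5 and 506.8 at 12DAA, and 436.9, 613.3, 392.2 and 371.7 at 22DAA. The WT leaves of the 3 time points overlapped, whereas in both mutants all leaves at 12DAA stood above those at HD. At 22DAA this held for the double mutant only, since replicate 3 of gpc-A1 lay within its HD range.

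TaYSL13 2AL and TaYSL13-like 2BL had the highest ratios of means between 22DAA and HD of the 10 loci in every genotype. In rice, OsYSL13 is known for distributing iron between leaves. TaYSL13 2AL had 131.0, 83.7, 78.6 and 78.8 normalized counts in gpc-A1/gpc-B2 plants at 22DAA, against 9.9, 18.1, 18.8 and 14.7 at HD. In gpc-A1 it had 816.2, 272.4, 53.6 and 88.5 at 22DAA, against 11.4, 4.1, 9.99 and 16.99 at HD. The lowest leaf at 22DAA thus exceeded the highest at HD in both mutants. WT leaves averaged 14.3 ± 2.8 at HD, 19.9 ± 1.3 at 12DAA and 74.8 ± 47.6 at 22DAA (SD, n = 4 each).

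TaYSL13-like 2BL had 253.2, 105.3, 93.9 and 96.3 normalized counts in gpc-A1/gpc-B2 plants at 22DAA, against 5.5, 8.6, 9.96 and 18.9 at HD. In gpc-A1 it had 816.2, 566.4, 32.6 and 83.9 at 22DAA, against 8.9, 4.1, 0 and 5.7 at HD. Replicate 1 was the highest leaf at 22DAA in both mutants, and the groups of 22DAA and HD did not overlap in either. WT leaves averaged 6.8 ± 3.6 at HD, 18.96 ± 7.2 at 12DAA and 85.3 ± 46.5 at 22DAA (SD, n = 4 each).

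TaYSL15 6AL, named after the rice carrier of iron-deoxymugineic acid, had 364.2, 402.4, 656.1 and 360.4 normalized counts in gpc-A1/gpc-B2 plants at HD, 318.8, 380.6, 269.2 and 312.2 at 12DAA, and 832.7, 394.2, 397.03 and 362.3 at 22DAA. Apart from replicate 3 at HD and replicate 1 at 22DAA, these leaves lay between 269.2 and 402.4. In gpc-A1 TaYSL15 6AL had 469.4, 420.3, 373.4 and 351.0 at HD and 463.3, 300.3, 374.7 and 478.3 at 12DAA. At 22DAA the gpc-A1 leaves had 1353.9, 1272.2, 345.8 and 648.9. WT leaves had 510.4, 604.4, 373.8 and 603.1 at HD, 426.7, 578.5, 490.0 and 448.0 at 12DAA, and 546.3, 1298.0, 789.6 and 1242.8 at 22DAA. TaYSL15 6BL averaged 62.1 ± 18.5 in gpc-A1/gpc-B2 plants at HD, 81.0 ± 9.4 at 12DAA and 128.3 ± 88.8 at 22DAA (SD, n = 4 each), the last mean resting on replicate 1 with 260.4 against 70.02 to 98.3 in the other leaves. In gpc-A1 it averaged 50.5 ± 8.5 at HD, 85.8 ± 37.2 at 12DAA and 230.1 ± 146.1 at 22DAA, and in WT 88.3 ± 40.1, 95.3 ± 12.2 and 199.3 ± 78.3 at these time points (SD, n = 4 each).

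TaYSL18 2AL was the only one of the 10 loci with lower means at both later time points than at HD in all 3 genotypes. It had 154.5, 186.5, 87.4 and 128.2 normalized counts in gpc-A1/gpc-B2 plants at HD, 121.002, 93.2, 76.03 and 116.2 at 12DAA, and 116.5, 70.7, 55.5 and 75.3 at 22DAA, and these ranges overlapped. In gpc-A1 it averaged 173.2 ± 73.3 at HD, 109.3 ± 41.5 at 12DAA and 134.99 ± 69.04 at 22DAA (SD, n = 4 each), so that the mean at 22DAA was above that at 12DAA. In WT it had 222.4, 232.7, 241.2 and 203.3 at HD, 137.4, 145.7, 151.7 and 140.7 at 12DAA, and 105.9, 70.7, 120.8 and 37.4 at 22DAA. In WT each later time point lay wholly below the earlier one. Its homoeolog TaYSL18 2BL ran from 309.6 to 681.2 across the 12 WT leaves, with overlap between all time points. It averaged 608.6 ± 379.9 in gpc-A1/gpc-B2, 758.7 ± 305.2 in gpc-A1 and 509.97 ± 161.4 in WT at 22DAA (SD, n = 4 each).

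**Figure D1:**
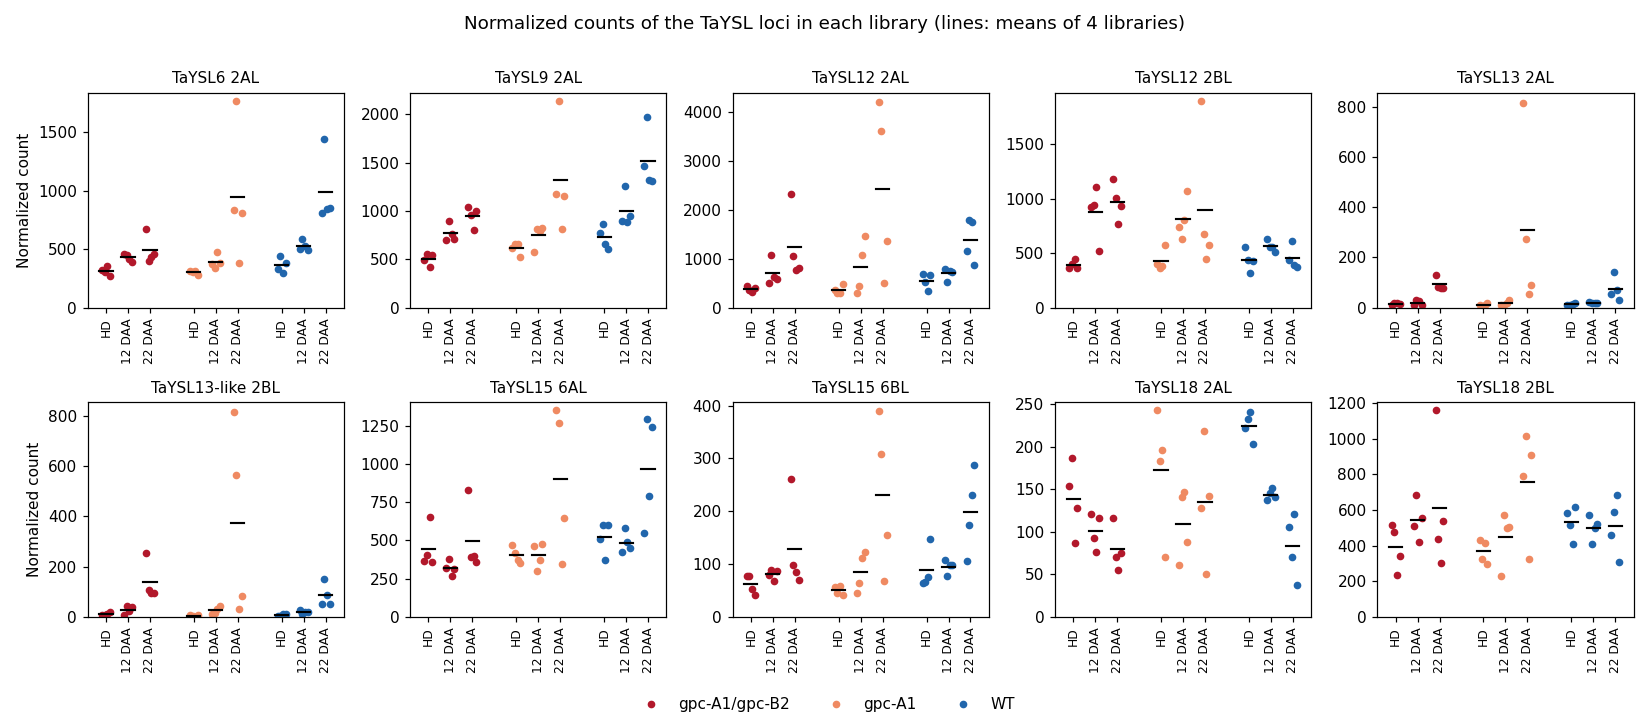
Normalized counts (linear axis from 0, a separate scale for each locus) of the 10 TaYSL loci in each of 36 libraries, with gpc-A1/gpc-B2 at the left, gpc-A1 in the middle and WT at the right, each in the order HD, 12DAA and 22DAA. Points are libraries in replicate order and lines are means of 4 libraries. Most loci are highest at 22DAA, where gpc-A1 libraries spread most, TaYSL18 2AL has lower means at both later time points than at HD in each genotype, and TaYSL12 2BL is above WT in the gpc-A1/gpc-B2 libraries of 22DAA.

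To find which of these changes over time hold against the spread between leaves, pairs of time points were tested within each mutant. Levels in the mutants were not used to match the loci. A locus was called differentially expressed (DE) by the rule of the study's methods, which asks for 4 tests to pass. These are edgeR's quasi-likelihood test and DESeq2, each with P adjusted over all 75375 loci (Benjamini-Hochberg) at or below 0.01, a rank test at or below 0.05, and a parametric test of means at or below 0.01. Fold changes and standard errors below are those of edgeR on the log2 scale.

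In gpc-A1/gpc-B2, 3 of the 10 loci rose between HD and 22DAA and 7 were not DE, against 4.38% of all loci called in either direction and 1.82% called higher. The chlorophyll a-b binding loci held a median of 1.18% of counts at 22DAA (range 0.835% to 1.47%), against 3.70% at HD (3.33% to 3.88%), and their part in the result was not tested. TaYSL9 2AL rose 1.88-fold (log2 fold change 0.91, SE 0.14, edgeR adjusted P = 0.0017). TaYSL12 2BL rose 2.45-fold (1.29, SE 0.16, edgeR adjusted P = 0.000396), and TaYSL13 2AL rose 5.96-fold (2.58, SE 0.26, edgeR adjusted P = 0.000134). Levels of these 3 loci were higher in 4 of 4 leaves at 22DAA than in any leaf at HD. TaYSL12 2AL and TaYSL13-like 2BL had log2 fold changes of 1.69 (SE 0.32, edgeR adjusted P = 0.00418) and 3.65 (SE 0.43, edgeR adjusted P = 0.000322) but missed the parametric test of means, and without replicate 1 the log2 fold change of TaYSL13-like 2BL was 2.98. By edgeR 8 loci had an unadjusted P under 0.05, as had 30.5% of all loci, and DESeq2 alone called 5, against 12.6% of all loci. TaYSL6 2AL had 0.64 (SE 0.17), and TaYSL18 2AL had −0.81 (SE 0.26, edgeR adjusted P = 0.051). In all, 6 of the 10 loci had groups without overlap, all higher at 22DAA, as had 22.1% of all loci in either direction. Without replicate 1 of both time points, 2 loci were DE (TaYSL13 2AL and TaYSL13-like 2BL), and without replicate 3 only TaYSL9 2AL, while 1.57% and 3.05% of all loci were called. Without replicate 2 or replicate 4 none was, and the shares of all loci were 0.67% and 0.548%.

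Between HD and 12DAA in gpc-A1/gpc-B2, 0 of the 10 loci were DE by the 4 tests, against 1.02% of all loci. By edgeR 5 had an unadjusted P under 0.05, as had 20.8% of all loci, and DESeq2 alone called 2, TaYSL9 2AL and TaYSL12 2BL, against 5.23% of all loci. The chlorophyll a-b binding loci held a median of 1.69% of counts at 12DAA. The log2 fold changes of TaYSL9 2AL and TaYSL12 2BL were 0.63 (SE 0.15, edgeR adjusted P = 0.0354) and 1.16 (SE 0.22, edgeR adjusted P = 0.0115). TaYSL12 2AL had 0.89 (SE 0.23, edgeR adjusted P = 0.0467). With these and TaYSL6 2AL, 4 of 10 loci had 12DAA leaves wholly above HD, as had 14.1% of all loci in either direction. Between 12DAA and 22DAA 0 of 10 loci were DE, as were 0 of all 75375 loci, while edgeR gave 4 of the 10 an unadjusted P under 0.05 (6.13% of all loci) and DESeq2 alone called TaYSL13 2AL and TaYSL13-like 2BL (0.174% of all loci). The log2 fold changes of these 2 loci were 2.26 (SE 0.33) and 2.19 (SE 0.46).

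In gpc-A1, 0 of the 10 loci were DE between HD and 22DAA, against 1.06% of all loci. The fold changes of most loci were nevertheless larger than in the double mutant, and so were their standard errors. The median log2 fold change of the 10 loci was 0.97 in gpc-A1/gpc-B2 and 1.36 in gpc-A1. Over all loci tested it was 0.01 and 0.03, where the normalization keeps it. By edgeR 9 loci had an unadjusted P under 0.05, as had 31.2% of all loci, and 6 an adjusted P of 0.05 or less, as had 14.3%. DESeq2 alone called those 6 at 0.01, against 11.9% of all loci. They were TaYSL6 2AL (log2 fold change 1.60, SE 0.36), TaYSL9 2AL (1.05, SE 0.26), TaYSL12 2AL (2.70, SE 0.54), TaYSL13 2AL (4.80, SE 0.88), TaYSL13-like 2BL (6.24, SE 1.12) and TaYSL15 6BL (2.13, SE 0.45). In each of these 6 the lowest leaf at 22DAA exceeded the highest at HD, a pattern shown by 21.4% of all loci in either direction, and none passed the parametric test of means. Without replicate 1 the log2 fold change of TaYSL13 2AL was 3.68 (edgeR adjusted P = 0.0697), without replicate 4 it was 5.46 (0.0211), and with the replicate block it was 4.20 (0.0175). The chlorophyll a-b binding loci held a median of 1.16% of counts in gpc-A1 at 22DAA, against 3.61% at HD. Leaving out any replicate number left the count of DE loci at 0. Over all loci the calls were 0.105%, 0.593% and 0.369% without replicates 2, 3 and 4. Replicate number 1 holds the HD library whose label fields disagree. Without it 0 of all 75375 loci were called, so this setting cannot show what part that library had.

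Between HD and 12DAA in gpc-A1, 0 of 10 loci were DE, against 0.2% of all loci, and 5 had an unadjusted edgeR P under 0.05, as had 15% of all loci. TaYSL12 2BL, at 812.0 ± 187.2 normalized counts at 12DAA against 428.1 ± 96.1 at HD (SD, n = 4 each), had a log2 fold change of 0.92 (SE 0.19, edgeR adjusted P = 0.0369), and DESeq2 alone called it and TaYSL13-like 2BL (2.43, SE 0.59), against 2.06% of all loci. For 3 of 10 loci the 12DAA leaves stood wholly above HD, as for 8.62% of all loci in either direction. Between 12DAA and 22DAA 0 of 10 were DE, as were 0 of all loci, with 7 at an unadjusted edgeR P under 0.05, beside 17.8% of all loci. DESeq2 alone called TaYSL13 2AL and TaYSL13-like 2BL, against 2.03% of all loci. At 4.10 (SE 0.83) and 3.85 (SE 0.92), the log2 fold changes of these had the largest standard errors among the 10.

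**Figure D2:**
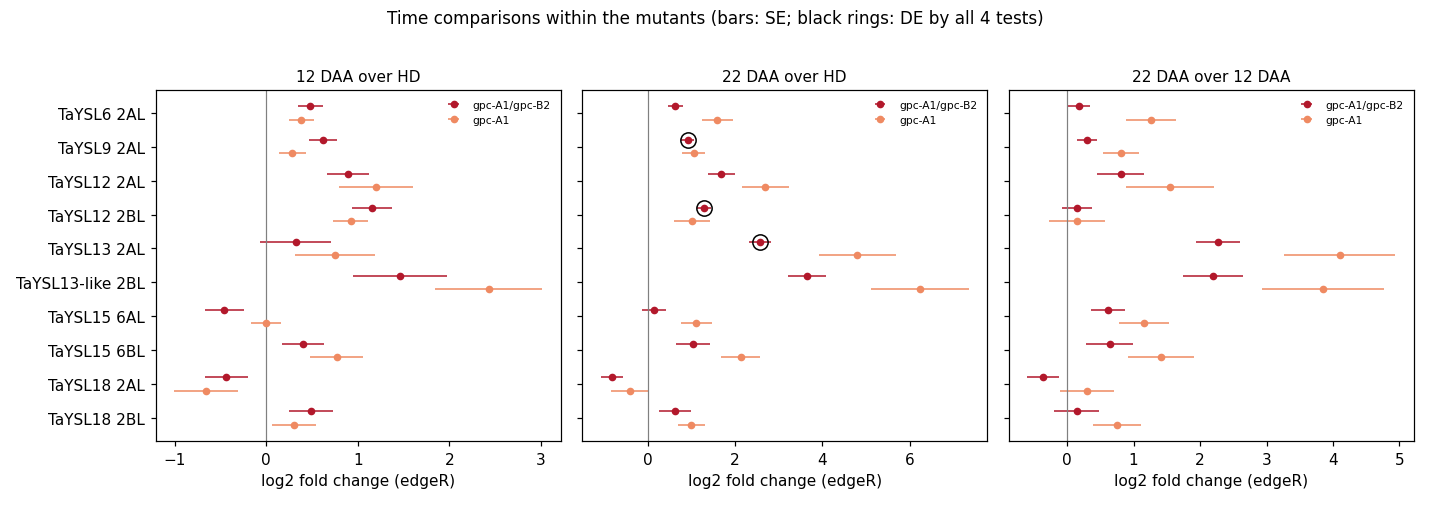
Log2 fold changes by edgeR of the 10 TaYSL loci between time points within gpc-A1/gpc-B2 (upper point of each pair) and gpc-A1 (lower point), 12DAA over HD at the left, 22DAA over HD in the middle and 22DAA over 12DAA at the right. Bars are standard errors and black rings mark the 3 loci DE by all 4 tests, TaYSL9 2AL, TaYSL12 2BL and TaYSL13 2AL in gpc-A1/gpc-B2.

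Whether the double mutant and gpc-A1 responded differently to time was tested as an interaction in edgeR on 16 libraries. Of the 10 loci, 0 differed in their response from HD to 12DAA and 0 in that from HD to 22DAA, beside 0.00133% of all loci in each. At an unadjusted P under 0.05 there were 0 and 2 loci in these tests, beside 4.82% and 4.57% of all loci. DESeq2 called 0 in either, beside 0.0265% and 0.00531% of all loci. The 2 loci with an unadjusted P under 0.05 were TaYSL6 2AL, with a log2 difference in response of −0.95 (SE 0.42, edgeR adjusted P = 0.952), and TaYSL13 2AL, with −2.22 (SE 0.97, edgeR adjusted P = 0.952). The 95% interval of the first ran from −1.77 to −0.13 and that of the second from −4.12 to −0.32, before adjustment for the number of loci. Likewise, 0 of 10 loci were DE between the double mutant and gpc-A1 at HD, 12DAA or 22DAA, beside 0.00133%, 0.171% and 0.0119% of all loci at these time points. The ranges of these genotypes overlapped for every TaYSL locus at each time point, while they did not for 3.34%, 5.94% and 2.71% of all loci. The edgeR test gave 0, 0 and 2 loci an unadjusted P under 0.05 at HD, 12DAA and 22DAA, beside 5.64%, 10.4% and 5.49% of all loci, and DESeq2 alone called 0 at each, beside 0.0597%, 0.492% and 0.0968%. At 22DAA, 9 of 10 loci had lower means in the double mutant, with a median log2 fold change of −0.83 and, for TaYSL13 2AL, −1.70 (95% interval −3.09 to −0.31). Adjusted P-values above the threshold do not show that the genotypes act alike.

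At 22DAA libraries within a group stood apart from each other across the loci. In gpc-A1, replicate 3 was the lowest library for all 10 loci, replicate 1 the highest for 6 and replicate 2 the highest for the other 4. The median of the 10 loci lay 1.39 below the group mean on the log2 scale in replicate 3, and 0.67 and 0.53 above it in replicates 1 and 2. The median of all loci tested moved by 0.073 at most, but the size factors hold it near 0 by construction. It therefore does not show that the shift is particular to these loci. In gpc-A1/gpc-B2, replicate 1 was the highest library for all 10 loci, 0.65 above the group mean. The chlorophyll a-b binding loci held 0.806%, 0.564%, 1.51% and 1.97% of counts in gpc-A1 replicates 1 to 4, and 0.835%, 1.44%, 1.47% and 0.917% in those of gpc-A1/gpc-B2. In WT replicate 2 was the highest library for 7 loci, and there these markers held 1.64%, 0.569%, 1.35% and 0.419% of counts. The libraries with the highest TaYSL levels had lower shares of these markers than most of their group. WT replicate 4 went the other way, with the lowest marker share of its group and the lowest level for 6 loci. Replicate 4 of gpc-A1/gpc-B2, at 0.917%, had a median over the 10 loci of −0.207 relative to the group mean on the log2 scale. The part of these markers in the results was not tested. At 22DAA the SD was 39.04% of the mean for the median locus in gpc-A1/gpc-B2, 62.4% in gpc-A1 and 35.2% in WT.

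**Figure D3:**
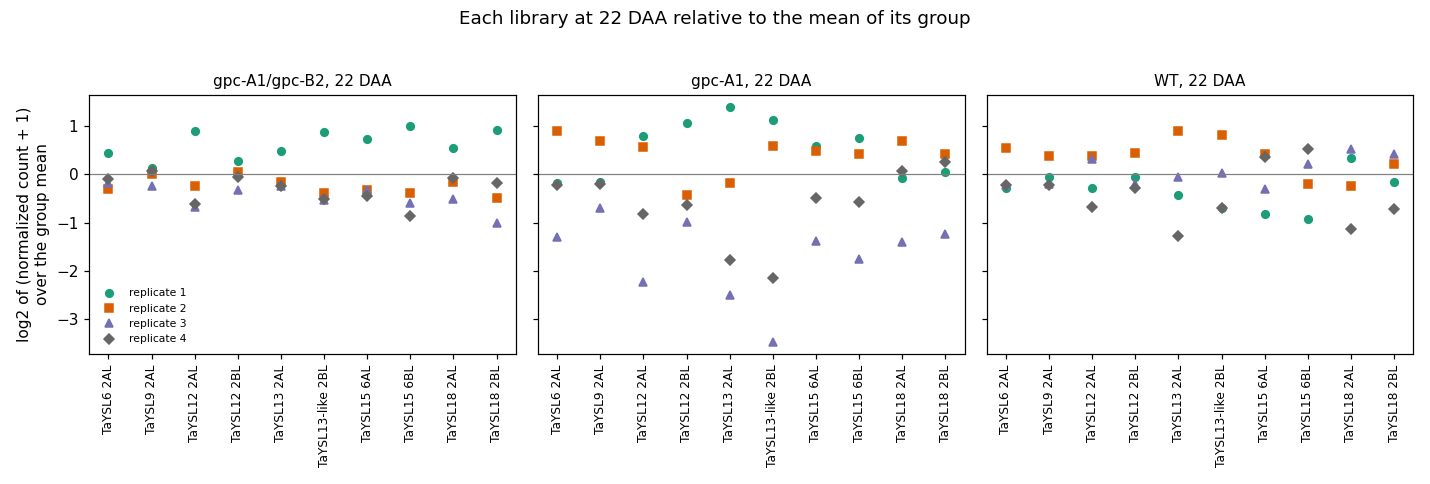
Level of each TaYSL locus in each 22DAA library relative to its group, as the log2 of normalized count + 1 over the group mean, for gpc-A1/gpc-B2 at the left, gpc-A1 in the middle and WT at the right. Symbols are replicates 1 to 4. Replicate 1 lies on top for all 10 loci in gpc-A1/gpc-B2, and replicate 3 lies lowest for all 10 in gpc-A1.

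Mutants were then compared with WT at each time point, the comparison by which the study looked for loci under control of the GPC genes. The match used WT levels and not their difference from the mutants, though the 10 loci were chosen with earlier results known. Both mutants were set against the same WT libraries. By the 4 tests as run here 0 of 10 loci were DE between either mutant and WT at any time point. The background differed: at 12DAA 1.24% of all loci were called between gpc-A1/gpc-B2 and WT and 0.304% between gpc-A1 and WT, while at 22DAA the shares were 0.0942% and 0%. At HD they were 0.00133% and 0%.

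TaYSL12 2BL came nearest to a call. At 22DAA its 4 leaves in gpc-A1/gpc-B2, at 770.1 to 1177.5 normalized counts, all exceeded the 4 WT leaves, at 371.7 to 613.3. The means were 970.4 ± 169.0 in the double mutant and 453.5 ± 109.9 in WT (SD, n = 4 each), a log2 fold change of 1.11 (SE 0.19, 95% interval 0.74 to 1.47). It passed 3 tests and missed edgeR's threshold, with an adjusted P of 0.025 in edgeR and 5.42e-05 in DESeq2. By its own versions of the tests the study marks this locus as DE and lower in WT than in gpc-A1/gpc-B2. The time point is not named there, and the study's text gives TaYSL12 as reduced in the double mutant. In gpc-A1 the mean at 22DAA was 898.0 ± 669.3 with a log2 fold change of 0.96 over WT (SE 0.43, edgeR adjusted P = 0.898), which rested on replicate 1 at 1892.6, since the other 3 leaves lay between 449.9 and 672.1. At 12DAA the log2 fold change over WT was 0.64 (SE 0.20, edgeR adjusted P = 0.0654) in gpc-A1/gpc-B2 and 0.53 (SE 0.16, edgeR adjusted P = 0.134) in gpc-A1. The 4 gpc-A1 leaves at 12DAA, at 632.1 to 1072.7, all exceeded the WT leaves, at 506.8 to 628.4, whereas the lowest double mutant leaf, at 515.9, did not. At HD the differences were −0.13 (SE 0.18) in gpc-A1/gpc-B2 and −0.02 (SE 0.19) in gpc-A1.

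TaYSL6 2AL, TaYSL9 2AL and TaYSL15 6AL lay on the other side of WT. At 22DAA TaYSL6 2AL averaged 489.4 ± 122.5 normalized counts in gpc-A1/gpc-B2 and 985.7 ± 302.9 in WT (SD, n = 4 each), without overlap. Its log2 fold change was −1.002 (SE 0.23, adjusted P = 0.0656 in edgeR and 0.00546 in DESeq2). TaYSL9 2AL averaged 952.1 ± 104.5 in gpc-A1/gpc-B2 and 1516.9 ± 311.1 in WT at 22DAA, without overlap, with a log2 fold change of −0.66 (SE 0.17, edgeR adjusted P = 0.0924). For gpc-A1 at 22DAA these values were −0.10 (SE 0.39) and −0.24 (SE 0.28), with overlapping leaves. TaYSL15 6AL at 12DAA had 318.8, 380.6, 269.2 and 312.2 in gpc-A1/gpc-B2, below all WT leaves at 426.7 to 578.5, with a log2 fold change of −0.60 (SE 0.15, adjusted P = 0.0311 in edgeR and 0.00565 in DESeq2). The gpc-A1 leaves at 12DAA, at 300.3 to 478.3, overlapped those of WT. TaYSL9 2AL was already lower at HD, with 419.3 to 550.8 in gpc-A1/gpc-B2 and 603.1 to 868.6 in WT, without overlap. For TaYSL6 2AL and TaYSL15 6AL the HD leaves of the double mutant and WT overlapped.

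Across the 10 loci, gpc-A1/gpc-B2 and WT did not overlap for 2 loci at HD (both lower in the mutant), for 3 at 12DAA (all lower) and for 3 at 22DAA (1 higher, 2 lower), beside 3.37%, 18.3% and 9.03% of all loci. For gpc-A1 and WT the counts were 1 at HD (lower), 3 at 12DAA (1 higher, 2 lower) and 0 at 22DAA, beside 4.86%, 8.11% and 3.1% of all loci. At an unadjusted edgeR P under 0.05 there were 3, 5 and 4 loci at HD, 12DAA and 22DAA for the double mutant, beside 4.94%, 28% and 15.1% of all loci, and 3 at each time point for gpc-A1, beside 7.35%, 14.4% and 5.34%. DESeq2 alone called 0, 1 and 2 loci for gpc-A1/gpc-B2 at these time points, beside 0.0637%, 6.87% and 2.21% of all loci, and 0 at each for gpc-A1, beside 0.0584%, 1.68% and 0.171%. At 12DAA the chlorophyll a-b binding loci held a median of 1.69% of counts in gpc-A1/gpc-B2, 3.20% in gpc-A1 and 3.10% in WT, and their part in these counts was not tested. The medians of the log2 fold changes of gpc-A1/gpc-B2 over WT were −0.32, −0.14 and −0.11, and those of gpc-A1 over WT −0.40, −0.16 and 0.59. Medians over all loci tested lay between −0.02 and 0.02, where the normalization keeps them. At 22DAA 7 of the 10 loci had a positive log2 fold change in gpc-A1 over WT. The largest were those of TaYSL13 2AL (2.01, SE 0.80) and TaYSL13-like 2BL (2.09, SE 0.85), each with an edgeR adjusted P of 0.898 and with overlapping leaves.

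**Figure D4:**
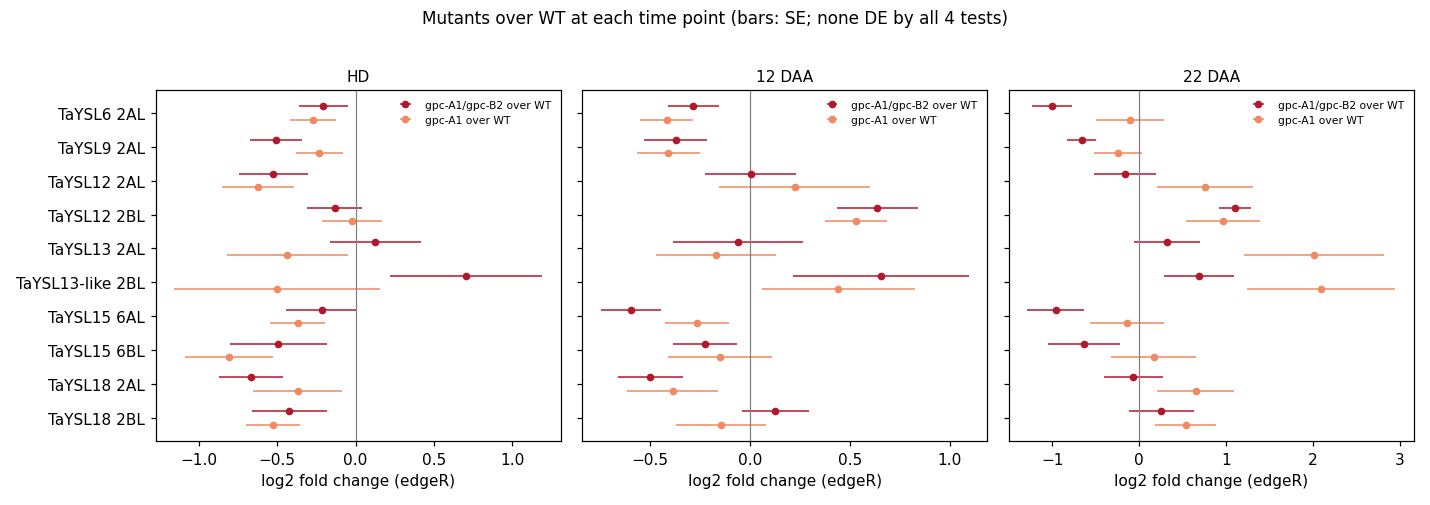
Log2 fold changes by edgeR of the 10 TaYSL loci in gpc-A1/gpc-B2 over WT (upper point of each pair) and gpc-A1 over WT (lower point) at HD, 12DAA and 22DAA. Bars are standard errors, and no locus was DE by all 4 tests. TaYSL12 2BL lies right of 0 at 12DAA and 22DAA in both mutants, and TaYSL6 2AL and TaYSL9 2AL lie left of 0 at each time point.

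The pairs TaYSL12, TaYSL15 and TaYSL18 have measured copies in both genomes, so the share of reads of the A genome copy could be followed. At 22DAA the 2AL copy of TaYSL12 gave 66.4%, 51.2%, 50.2% and 46.5% of the reads of both copies in gpc-A1/gpc-B2 and 72.4%, 74.6%, 81.6% and 69.9% in WT. The means were 53.6 ± 8.8% in gpc-A1/gpc-B2, 69.2 ± 12.7% in gpc-A1 and 74.6 ± 5.0% in WT (SD, n = 4 each). The double mutant lay below WT by 21.1 percentage points without overlap, with an exact permutation P of 0.0286 (two-sided), the smallest that 4 against 4 leaves allow, and 0.143 after adjustment over 45 such comparisons. At HD the shares were 49.1 ± 5.8% in gpc-A1/gpc-B2, 45.5 ± 2.0% in gpc-A1 and 55.5 ± 3.7% in WT, and at 12DAA 44.5 ± 10.1%, 46.3 ± 13.99% and 55.2 ± 4.5% in these groups. The same smallest P of 0.0286 (exact permutation, adjusted P = 0.143) was reached by gpc-A1 minus WT at HD, with a difference of −9.95 percentage points, and within gpc-A1 by 22DAA minus HD, with 23.7 percentage points. The highest gpc-A1 leaf at HD, with 48.3%, was the library whose label fields disagree.

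The 2AL copy of TaYSL18 gave a declining share in every genotype. It held 26.4 ± 2.3% in gpc-A1/gpc-B2 at HD, 15.95 ± 3.1% at 12DAA and 12.7 ± 2.7% at 22DAA, and in gpc-A1 30.9 ± 8.1%, 19.6 ± 3.4% and 14.7 ± 2.0% at these time points (SD, n = 4 each). WT leaves, whose levels chose the loci, had 30.2 ± 5.4%, 22.6 ± 2.9% and 13.8 ± 3.8%. Between HD and 22DAA the leaves did not overlap in either mutant (exact permutation P = 0.0286 each, adjusted P = 0.143). The 6AL copy of TaYSL15 kept 79.7% to 88.8% of the reads on average in all 9 groups. Of the 45 comparisons, 9 reached the smallest P, and none an adjusted P under 0.05. Each share counts only reads that distinguish the copies.

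**Figure D5:**
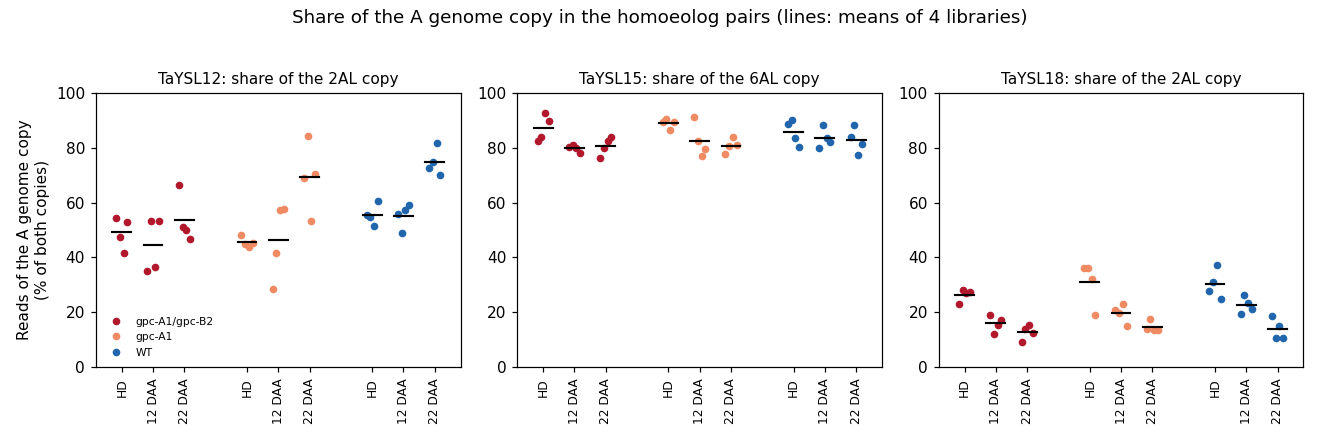
Share of the A genome copy among the reads of both homoeologs (percent, axis from 0 to 100) of TaYSL12, TaYSL15 and TaYSL18 in each library, with gpc-A1/gpc-B2, gpc-A1 and WT from left to right in each panel. Points are libraries and lines are means of 4 libraries. The TaYSL12 share at 22DAA averages 53.6% in gpc-A1/gpc-B2, 69.2% in gpc-A1 and 74.6% in WT, and the TaYSL18 share is lower at each later time point in every genotype.

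The loci also differed in how they varied from library to library. Over all 36 libraries, Pearson correlations of log2(normalized count + 1) were highest between TaYSL6 2AL and TaYSL9 2AL (0.916), TaYSL13 2AL and TaYSL13-like 2BL (0.901) and TaYSL12 2AL and TaYSL15 6BL (0.875). TaYSL12 2BL correlated at 0.584 with its homoeolog, and TaYSL18 2AL correlated at 0.406 with its homoeolog and between −0.354 and −0.0258 with the other 8 loci. These values describe libraries that share genotypes, time points and depth, and no test was attached. Among the 71 loci matched to tabulated metal transport genes, TaNRAMP2 4AS, named after a family of metal ion transporters, was most like TaYSL6 2AL (r = 0.958) and TaYSL9 2AL (r = 0.931). TaZIFL7 5BL was most like TaYSL18 2AL (0.682), TaZIFL2-like1 3B most like TaYSL12 2BL (0.585) and TaZIP6 1BS most like TaYSL18 2BL (0.836).

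In the same way 5 further TaYSL loci were matched, of TaYSL2, TaYSL14 and TaYSL16, and 0 of 5 were DE in any of the 15 comparisons. Of 7 loci for chelator synthesis (3 of NAS, 3 of NAAT and 1 of DMAS), the 3 NAAT loci were DE and lower at 12DAA in both mutants than in WT, beside 0.821% of all loci called lower in gpc-A1/gpc-B2 and 0.202% in gpc-A1. TaNAAT2 1BL averaged 45.7 ± 14.5 normalized counts in gpc-A1/gpc-B2, 43.2 ± 4.5 in gpc-A1 and 453.3 ± 116.4 in WT at 12DAA (SD, n = 4 each). Its log2 fold changes over WT were −3.32 (SE 0.25, edgeR adjusted P = 1.06e-05) in gpc-A1/gpc-B2 and −3.39 (SE 0.20, edgeR adjusted P = 2.55e-06) in gpc-A1. Those of TaNAAT1 1AL were −2.67 (SE 0.27) in gpc-A1/gpc-B2 and −2.39 (SE 0.37) in gpc-A1, and those of TaNAAT2 1AL −2.62 (SE 0.17) and −2.16 (SE 0.22) in these mutants. Over time TaNAAT2 1AL fell in gpc-A1/gpc-B2 at 12DAA and 22DAA relative to HD (log2 fold changes −1.88, SE 0.22, and −2.30, SE 0.20), and TaNAAT2 1BL fell in gpc-A1 at 22DAA (−2.23, SE 0.33). None of the 10 TaYSL loci was DE and lower at a later time point in the mutants, where the lowest log2 fold change was −0.81 in TaYSL18 2AL.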

How the data were processed

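The authors aligned single reads with GSNAP to the IWGSC contigs of both durum genomes, used HTSeq to count the uniquely mapped reads of each locus, and deposited raw counts per locus and library, without normalization. A second deposited table gives the positions of 139828 loci. The HTSeq version is not given in the sources used here. Groups follow the genotype and time point of each title.

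Counts were tested in R 4.3.3 with edgeR 4.0.16 (TMM factors, quasi-likelihood test) and DESeq2 1.42.0, in place of the DESeq of the methods, on the 8 libraries of each of 15 comparisons. The rank test (Mann-Whitney-Wilcoxon, normal approximation without continuity correction) and the methods' t-test (in its unequal variance form, since the form is not stated) used the normalized counts. The tests were run on simulated data first. Standard errors derive from edgeR's fold change and P. Correlations and exact permutation tests used SciPy 1.17.1.

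Members, lists and tests were chosen with earlier results of these data known. All 10 members are named, other TaYSL and chelator loci where DE. Of 25 tabulated TaYSL entries 15 were matched, and the rest are not analysed here. The mutated GPC genes were not checked here. Within groups, libraries correlated at 0.894 to 0.979. Libraries of a replicate number were sequenced together, so the numbers pair the samples by batch. Deviations from group means correlated at 0.0124 on average between libraries of the same number (144 pairs) and −0.00419 between others (432 pairs). P-values measure the spread between single leaves.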

Additional observations from a re-analysis of the deposited data

Results flagged for a closer look

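Within the 90 groups of 4 libraries formed by the 10 loci, 11 held a library whose gap to the nearest other exceeded Dixon's 95% critical share of the group's range. In independent groups with normal spread, chance flags about 1 in 20. The values here were on the linear scale and the 90 groups share 36 libraries, so that rate need not hold for them. Replicate 1 of gpc-A1/gpc-B2 at 22DAA stood highest in this way for TaYSL13 2AL (131.0 normalized counts), TaYSL13-like 2BL (253.2), TaYSL15 6AL (832.7) and TaYSL15 6BL (260.4). Other high libraries were replicate 3 of gpc-A1/gpc-B2 at HD for TaYSL15 6AL (656.1), replicate 4 of gpc-A1 at HD for TaYSL12 2BL (570.7) and replicate 1 of gpc-A1 at 22DAA for TaYSL12 2BL (1892.6). In WT they were replicate 2 at 22DAA for TaYSL6 2AL (1439.3), replicate 2 at 12DAA for TaYSL9 2AL (1258.3) and replicate 4 at HD for TaYSL15 6BL (148.1). The only low library was replicate 1 of gpc-A1 at 12DAA for TaYSL9 2AL (570.9).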

How the results depend on the processing

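Counts of DE TaYSL loci out of 30 (10 loci in 3 comparisons) depended most on the rule. Over time in gpc-A1 there were 0 by the 4 tests, 1 by edgeR alone and 10 by DESeq2 alone, while edgeR alone called 0% to 2.52% of all loci in the 3 comparisons and DESeq2 alone 2.03% to 11.9%. Over time in gpc-A1/gpc-B2 there were 3 by the 4 tests, 5 by edgeR alone and 9 by DESeq2 alone (0% to 7.87% and 0.174% to 12.6% of all loci), and leaving out a replicate number gave 0 to 2 (2 without replicate 1, 0 without replicate 2, 1 without replicate 3 and 0 without replicate 4), while the calls over all loci between HD and 22DAA were 0.548% to 3.05%, against 4.38% with all libraries. With fewer libraries the tests have less power by construction. Between gpc-A1/gpc-B2 and WT there were 0 by the 4 tests, 3 by DESeq2 alone (0.0637% to 6.87% of all loci) and 2 at an adjusted P of 0.05, TaYSL15 6AL at 12DAA (4.21% of all loci) and TaYSL12 2BL at 22DAA (0.523%). For gpc-A1 against WT, gpc-A1/gpc-B2 against gpc-A1 and the interaction, every alternative gave 0. DESeq2 size factors in edgeR, no filter on low counts and all groups in a single fit changed none of these counts. The replicate block left 3 over time in gpc-A1/gpc-B2 and 0 elsewhere, and changed no call. Of the fold changes named above, 18 were followed through the alternatives, those DE or with an edgeR adjusted P of 0.05 or less. None of these 18 turned its direction, and 2 moved by over 1.5 times in linear terms. The log2 fold change between HD and 22DAA of TaYSL13 2AL in gpc-A1 (4.80) was 3.68 without replicate 1 and 5.46 without replicate 4. With the replicate block it was 4.20. That of TaYSL13-like 2BL in gpc-A1/gpc-B2 (3.65) was 2.98 without replicate 1. Other fold changes named above were not followed in this way. The difference in TaYSL12 share at 22DAA between gpc-A1/gpc-B2 and WT stayed between −26.1 and −17.6 percentage points when a replicate number was left out, an alternative chosen after seeing the data.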
